A study of Mus musculus with 36 samples.

Results

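The 10 genes described here encode heat shock chaperones of mouse natural killer (NK) cells, and were chosen by name: Hspa8, Hspa1a, Hspa1b and Hsph1 of the HSP70 system, its J-domain partners Dnajb1 and Dnaja1, the HSP90 pair Hsp90aa1 and Hsp90ab1, and the mitochondrial pair Hspd1 and Hspe1. Each symbol occurs once in each of 4 deposited tables, which hold 32940 genes for sorted splenic subsets and 56923 genes each for ionomycin, antibody and tumour libraries. The values are TPM, in which the reads of a gene are divided by its length, so levels can be compared between genes of a library. The libraries of 3 tables each sum to 1000000 TPM, and those of the subset table, which lists fewer genes, to between 934292 and 948786 TPM. The genes were picked knowing that heat shock genes stood higher in B2m-/- than in wild-type (WT) cells. Their values in that contrast are therefore given as a description, and the calls and standard errors printed for it reuse the values that chose the genes and are no test of them.

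The subset table holds 18 libraries of CD27-CD11b+ NK cells from spleens of C57BL/6 mice that were WT (B2m+/+) or B2m-/- (KO); B2m encodes the light chain that MHC class I molecules need to reach the cell surface. Cells were sorted by their inhibitory receptors: TP were positive for Ly49C, Ly49I and NKG2A, SP for Ly49I alone, and TN for none. For the ionomycin libraries, splenocytes of WT mice spent 22 h in vehicle or in this calcium ionophore, and NK cells were then purified by flow cytometry. For the antibody libraries, splenocytes of WT mice spent 48 h in medium, on coated anti-NKp46 plus anti-NKG2D, or on coated anti-NKp46 plus anti-DNAM-1. The tumour table holds CD27-CD11b+ NK cells taken on day 10 from B6 mice with subcutaneous MC38 B2m-/- tumours, a colon carcinoma line. The labels give these libraries the genotype WT, while their column names carry B2MKO and SP, terms the labels do not explain, so the genotype of the NK cells was not settled here. All 12 groups have 3 libraries that the labels call biological replicates. Column names of the subset and antibody tables repeat labels such as WT1 or KO1 across groups. Nothing says whether libraries with the same number came from 1 mouse.

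Chaperones bind proteins that are not yet folded or have lost their fold. HSP70 proteins hold short exposed stretches in a cycle driven by ATP, J-domain proteins deliver the client and start ATP hydrolysis, and HSP110 proteins such as Hsph1 exchange the nucleotide so that the client is let go. HSP90 acts later, on clients such as kinases and steroid receptors, while HSP60 (Hspd1) and its lid HSP10 (Hspe1) fold proteins inside mitochondria. Many of these genes are switched on by heat shock factor 1, which binds inverted repeats of the sequence GAA called heat shock elements.

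Sites of that kind were searched for in the promoters. The genes were chosen as heat shock genes, so the matches are a description and no independent test. RefSeq promoter windows (assembly GRCm38.p6) were given for 7 of the 10 genes, and the 250 bases before each annotated start were searched for GAANNTTC and TTCNNGAA, which read the same on both strands and can overlap each other. Hspa8, Hsp90aa1 and Hsp90ab1 had no entry. Of the 7 genes, 6 held at least 1 match in any of their windows, as did 14.5% of all 27025 genes. Of all 32851 windows 12.8% held a match. The 6 are not separate sites, since Hspd1 and Hspe1 matched on the same bases and Hspa1a and Hspa1b on identical stretches. Dnaja1 and Hspd1 matched in only some of their windows. An array of 3 units in a row, GAANNTTCNNGAA or TTCNNGAANNTTC, occurred in the shared window of Hspd1 and Hspe1 and in 0.466% of all windows. Dnajb1 held no match in its windows. Capitals mark the matched bases, and each sequence is written 5′ to 3′ on the strand of its gene.
Hspe1 (chr1:55088053-55088082, plus strand): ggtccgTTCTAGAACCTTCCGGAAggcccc
Hspd1 (chr1:55088053-55088082, minus strand): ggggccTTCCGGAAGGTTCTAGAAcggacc
Hsph1 (chr5:149636351-149636380, minus strand): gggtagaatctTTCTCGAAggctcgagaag
Dnaja1 (chr4:40722333-40722362, plus strand): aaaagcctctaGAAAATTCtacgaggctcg
Hspa1a (chr17:34972242-34972271, minus strand): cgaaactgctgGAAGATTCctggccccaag
Hspa1b (chr17:34959324-34959353, minus strand): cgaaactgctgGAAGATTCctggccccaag

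The lines for Hspe1 and Hspd1 are the same bases read from both strands, since these genes are transcribed away from a common stretch on chromosome 1. The first match lay 89 bases before the Hspe1 start and 144 bases before one of the Hspd1 starts, and in GENCODE M21 the stretch falls in a 5′ untranslated exon of another Hspd1 transcript. The Hspa1a and Hspa1b stretches are identical, lie between genes and start their match 104 bases before each gene. The 250 bases before the Hspa1a and Hspa1b starts differed at 3 positions. The single-exon coding sequences of this pair, of 1923 and 1926 bases, were 99.4% identical, and 58.8% of all 50-base windows of the Hspa1a transcript also occur in Hspa1b. Short reads can therefore be split between the pair by the estimate, and each level of Hspa1a and Hspa1b is uncertain on its own. The Hsph1 stretch falls in an untranslated exon of an Hsph1 transcript, and the Dnaja1 stretch in exons of Dnaja1 and Gm6297 transcripts.

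B2m was at 2915 to 3420 TPM in the 9 WT libraries of the subset table and at 73.9 to 128 TPM in the 9 KO libraries. Summed NK cell markers (9 genes) ran from 19006 to 22836 TPM in that table and did not fall under 6395 TPM in any library of the other 3. Summed neutrophil markers (6 genes) reached 61.0 to 217 TPM in KO TP libraries and at most 5.85 TPM in other libraries of the subset table. B and plasma cell markers (7 genes) summed to 334 to 517 TPM in KO TP and 167 to 326 TPM in the others. Monocyte and macrophage markers (6 genes) summed to 23.2 to 55.9 TPM in KO TP and 11.6 to 14.6 TPM in WT TP, and T cell markers (6 genes) to 12.5 to 16.6 and 3.35 to 4.96 TPM. Sequencing depth is unknown, and between 12290 and 18096 genes were above 0 per library. In these bulk libraries fewer cells of a type and less RNA per cell cannot be told apart.

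The constitutive HSP70 gene Hspa8 was the most abundant of the 10 in every library. It averaged 1482 TPM over the subset table and ranked 50 among all genes. Hsp90ab1, the constitutive HSP90, averaged 565 TPM there, its inducible partner Hsp90aa1 272 TPM, and the J-domain gene Dnaja1 227 TPM. The other J-domain gene Dnajb1 averaged 67.6 TPM, the nucleotide exchange factor Hsph1 75.8 TPM, Hspd1 97.9 TPM and Hspe1 40.5 TPM. The stress-inducible pair stood lowest, with Hspa1b at 12.4 TPM and Hspa1a at 1.16 TPM, and Hspa1a was listed at 0 in 10 of 18 libraries. Hspa8 alone made up 40.3% to 56.1% of the summed TPM of the 10 genes in the subset libraries.

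In B2m-/- cells Hspa8, Hsph1, both J-domain genes, both HSP90 genes and Hspd1 stood above WT in all 3 subsets. Hspa8 was at 827, 851 and 1138 TPM in the WT TP libraries numbered 1 to 3, at 835, 598 and 1134 TPM in WT SP, and at 734, 876 and 1189 TPM in WT TN. The KO libraries held 1826, 1563 and 2545 TPM in TP, 1996, 1586 and 2638 TPM in SP, and 2105, 1582 and 2660 TPM in TN. Every KO library thus lay above every WT library, and the KO libraries numbered 3 were the highest. Averaged over the 3 subsets of each number, Hspa8 was at 909 ± 212 TPM in WT and 2056 ± 523 TPM in KO (SD, n = 3), a ratio of 2.26.

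**Figure D1:**
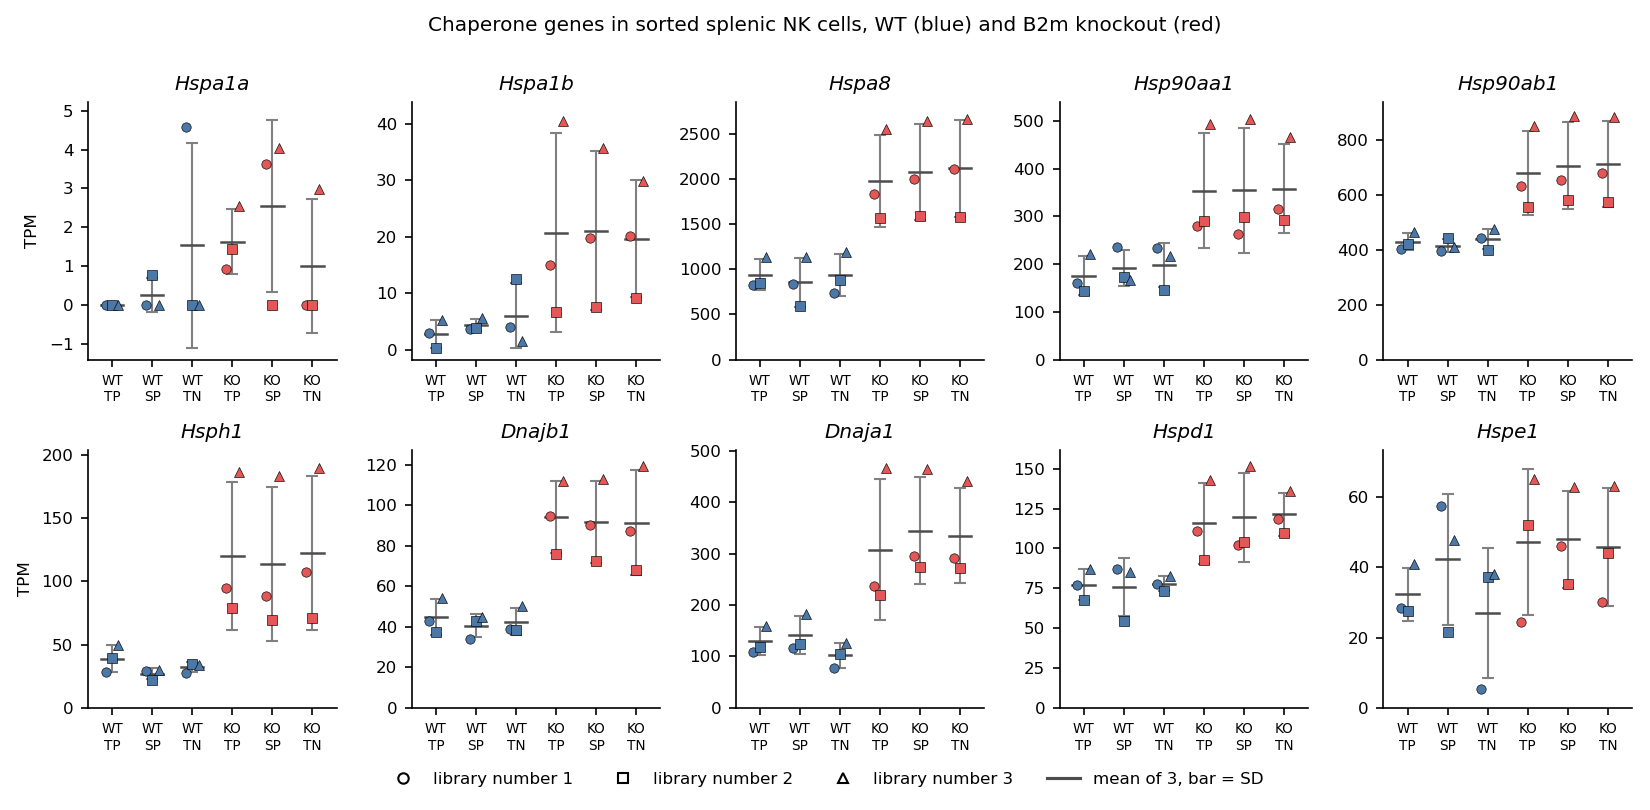
TPM of the 10 chaperone genes in each of 18 sorted NK cell libraries (vertical axis, starting at or under 0), by genotype and subset (horizontal axis), with the mean and SD of 3 libraries. Hspa8 shows the common pattern: WT libraries reach at most 1189 TPM, KO libraries start at 1563 TPM, and the triangles (number 3) lie on top in each KO subset.

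Hsph1, the HSP110 exchange factor, had the largest ratio between genotypes after the scarce Hspa1b. It ran from 22.1 to 49.6 TPM over the 9 WT libraries. The KO libraries held 94.4, 79.0 and 187 TPM in TP, 88.7, 69.4 and 183 TPM in SP, and 108, 70.7 and 189 TPM in TN. The mean over numbers was 32.7 ± 4.81 TPM in WT and 119 ± 59.8 TPM in KO (SD, n = 3), a ratio of 3.63, and again the groups did not overlap. The lowest KO value came from SP number 2 and the highest WT value from TP number 3.

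The J-domain genes, which load clients onto HSP70, stood higher in KO too. Dnaja1 ran from 76.6 to 183 TPM in WT and from 220 to 467 TPM in KO libraries, with a ratio of means of 2.65. Dnajb1, a stress-inducible partner, ran from 34.2 to 54.4 TPM in WT and from 68.0 to 119 TPM in KO, with a ratio of 2.17. Neither gene overlapped between genotypes.

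The HSP90 genes differed by less. Hsp90ab1 ran from 395 to 475 TPM in WT libraries and from 557 to 887 TPM in KO libraries, a ratio of means of 1.63. Hsp90aa1 ran from 144 to 235 TPM in WT and from 262 to 505 TPM in KO, a ratio of 1.89. The step between the highest WT and the lowest KO library was narrow for Hsp90aa1, though the groups did not overlap. Hsp90ab1 exceeded Hsp90aa1 in every library, by 1.68 to 2.92 times in WT and 1.73 to 2.50 times in KO.

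The mitochondrial pair shares the stretch of DNA shown above, and its genes differed in how the genotypes separated. Hspd1 ran from 54.8 to 87.1 TPM in WT and from 93.0 to 152 TPM in KO, a ratio of means of 1.55 with no overlap. Hspe1 ran from 5.49 to 57.6 TPM in WT and from 24.5 to 65.3 TPM in KO, and the genotypes overlapped. The lowest Hspe1 value, 5.49 TPM, came from WT TN number 1, where Hspd1 was at 77.8 TPM, and the ratio of Hspd1 to Hspe1 there was 14.2 against 1.51 to 4.53 in the other subset libraries.

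Of the inducible pair, Hspa1b ran from 0.25 to 12.5 TPM in WT and from 6.60 to 40.6 TPM in KO. The highest WT value, 12.5 TPM in TN number 2, exceeded the lowest value of each KO subset. Hspa1a was at most 4.59 TPM in either genotype. With both genes summed, since reads may be split between them, WT TP libraries averaged 2.83 ± 2.49 TPM and the KO TP libraries held 15.9, 8.03 and 43.1 TPM.

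Over all 18 libraries, 7 of the 10 genes had every KO library above every WT library, a pattern met by 0.824% of the 12018 genes tested in this table (mean of at least 1 TPM). By subset, 9 genes did not overlap in TP, 8 in SP and 7 in TN, all higher in KO, where 11.1%, 11.1% and 7.95% of all genes did. Limma, a linear model with moderated variances, called 2, 5 and 4 of the 10 higher in KO at a Benjamini-Hochberg adjusted p under 0.05, where it called 0.982%, 0.766% and 0.424% of all genes. Their median log2 changes were 1.06 in TP, 1.19 in SP and 1.06 in TN, and those of all genes 0.04, 0.03 and 0.02. Since the genes were picked from this contrast, nothing is read from these counts. Hspa1a, at 0 in all WT TP libraries, is among the 9 and reached the mean of 1 TPM through the KO libraries. Without the KO libraries numbered 3 in all subsets the counts called were 0, 3 and 2, and with WT number 3 left out instead, 2, 3 and 3.

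In KO SP and KO TN the neutrophil markers summed to at most 5.85 and 0.39 TPM, and Hspa8 stood at 2073 ± 530 and 2116 ± 539 TPM against 1978 ± 508 TPM in KO TP (SD, n = 3). Summed handling-sensitive immediate-early genes (15 genes such as Fos, Junb and Egr1, which can be induced when tissue is processed) ran from 1378 to 1765 TPM in WT and from 1315 to 1709 TPM in KO. None of 13 tested was called higher in KO in any subset, while Nr4a1 and Egr1 were called lower in KO SP. The part of other cells or of handling in the KO difference was not tested.

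**Figure D2:**
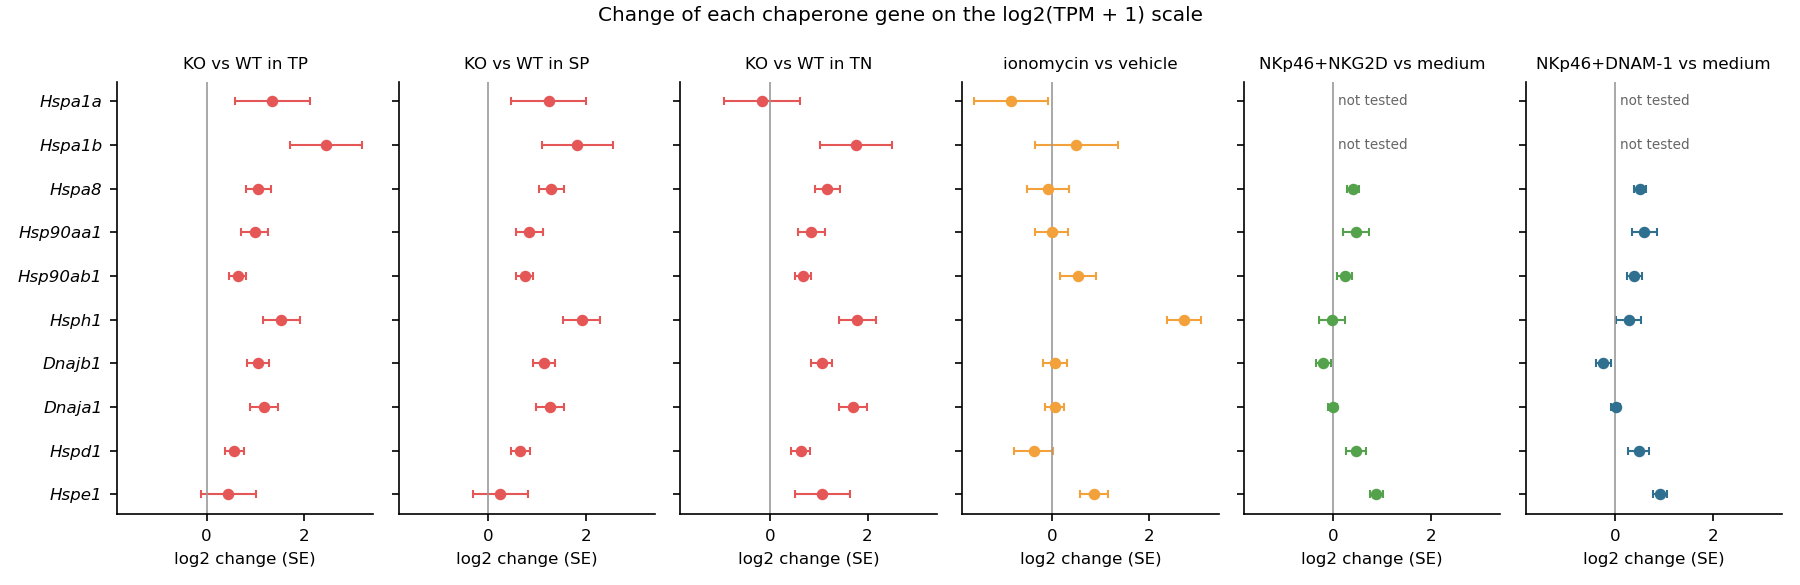
Log2 change of each gene (horizontal axis, log2 of TPM + 1, bars give the standard error from limma) in 6 comparisons, of which the 3 of KO against WT chose the genes and are a description. The 3 KO panels share a pattern with Hsph1 between 1.53 and 1.92, ionomycin moves Hsph1 by 2.72 with Hspa8 at -0.08, and the antibody panels are led by Hspe1.

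The spread inside the KO groups was itself uneven. The KO library numbered 3 was the highest of its 3 for 10 of 10 genes in TP, in SP and in TN, and 4.18% of all tested genes had their highest KO value in number 3 in all 3 subsets. KO number 2 was the lowest for 23 of the 30 gene and subset pairs, where 29.2%, 29.6% and 31.1% of all genes were in TP, SP and TN. As means over subsets, KO number 3 held 1.66 times the level of KO number 2 for Hspa8, 2.55 times for Hsph1, 1.79 times for Dnaja1 and 1.41 times for Hspd1. WT number 3 was the highest for 20 of 30 pairs, where 28.3%, 31.9% and 32.2% of all genes were in TP, SP and TN. In all 3 subsets, 3 of 10 genes were highest there, where 3.58% of all genes were. Levels of the 10 genes rose and fell together across libraries, so the 30 pairs are not separate observations. The median SD of the 10 genes on the log2 scale was 0.45, 0.41 and 0.39 in KO TP, SP and TN, against 0.23, 0.17 and 0.22 for all genes. In WT TP, SP and TN it was 0.28, 0.31 and 0.35, against 0.24, 0.29 and 0.30 for all genes. What sets KO number 3 apart was not tested.

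Among subsets of 1 genotype no difference was called in the 10 genes. Limma called none in TN against TP, SP against TP or TN against SP, in WT or in KO, and none had an unadjusted p under 0.05. The shares of all genes called were 1.31%, 0.191% and 0.383% in WT and 0.524%, 0.2% and 0.0416% in KO. For Hspa8, TN against TP gave a log2 change of -0.02 in WT (95% confidence interval -0.57 to 0.52) and 0.10 in KO (-0.45 to 0.64). For Hsph1 the same comparison gave -0.24 in WT (-1.04 to 0.56) and 0.02 in KO (-0.78 to 0.82). These intervals come from a fit that did not pair libraries by number, so they include the spread between numbers. With a replicate block none of the 10 genes was called either. Dnaja1 in WT TN against SP had a limma adjusted p of 0.561 without the block and 0.0704 with it. The interaction asks whether the KO difference changes between TP and TN. None of the 10 genes was called there, none had an unadjusted p under 0.05, and 0.025% of all genes were called.

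Genes of other chaperone lists, also chosen with earlier results known, are described in the same contrast, where 0.982%, 0.766% and 0.424% of all genes were called higher in TP, SP and TN. Of 37 partners of HSP70 and HSP90, 3 were called higher in KO in TP, 1 in SP and 1 in TN, and none lower, with median log2 changes of 0.11, 0.19 and 0.15. Stip1, the HOP adaptor that links HSP70 to HSP90, was at 80.5, 57.2 and 81.8 TPM in WT TP and at 138, 123 and 235 TPM in KO TP. Ptges3, the p23 cochaperone, and Fkbp4, an HSP90-bound prolyl isomerase, were the others called in TP, and Fkbp4 was the one called in SP and in TN. The KO library numbered 3 was again the highest for Stip1 in each subset. None of 11 mitochondrial chaperones and proteases and none of 14 TRiC and prefoldin genes was called in any subset.

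Of 22 endoplasmic reticulum chaperone and unfolded protein response genes, 1, 3 and 1 were called higher in KO in TP, SP and TN. Calr, calreticulin, was at 456 ± 18.9 TPM in WT TP and 606 ± 38.8 TPM in KO TP (SD, n = 3), and was called in all 3 subsets. In SP, Hspa5 (BiP) was at 209 ± 19.8 TPM in WT and 296 ± 12.1 TPM in KO, and Hyou1, its exchange factor, at 49.5 ± 0.37 and 71.2 ± 2.54 TPM. Their KO SP libraries lay close together, with Hspa5 at 307, 283 and 298 TPM, and number 3 did not stand out. The heat shock factors were not called: Hsf1, the main regulator of the family, was at 81.4 ± 13.9 TPM in WT TP and 99.9 ± 27.5 TPM in KO TP. Of 8 small heat shock protein genes only Hspb6 reached a mean of 1 TPM, and it was not called.

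The genes whose levels were most like the mean of the 10 standardised members over the 18 libraries were Stip1 (Pearson r = 0.984), Ptges3 (0.950), Ccdc117 (0.945), Ahsa2 (0.917) and Gpr171 (0.910), out of 9767 genes at 5 TPM or more. The genotype difference and the libraries are shared by all points, so these values describe the table. Between pairs of the 10 genes the median r was 0.835 over the 18 libraries, from -0.083 for Hspe1 with Hspa1a to 0.969 for Dnajb1 with Hsp90ab1.

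Hsph1 rose with ionomycin and the other 9 genes were not called. Hsph1 was at 53.4, 67.4 and 25.2 TPM in the vehicle libraries and at 341, 269 and 297 TPM in the ionomycin libraries, with no overlap. That was 48.6 ± 21.5 against 302 ± 36.0 TPM (SD, n = 3), a log2 change of 2.72 (SE 0.35, limma adjusted p = 0.00716). It was 1 of 10 genes called higher, where 1.66% of 14372 tested genes were, and 2 of the 10 had an unadjusted p under 0.05. The call was lost without any 1 of the ionomycin libraries, with adjusted p between 0.0676 and 0.083 and log2 changes between 2.63 and 2.80, and held without each vehicle library.

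Hspe1 was the second gene whose groups did not overlap, with 65.3, 50.5 and 43.6 TPM under vehicle and 85.1, 79.4 and 131 TPM under ionomycin. It gave a log2 change of 0.86 (SE 0.29) and was not called (limma adjusted p = 0.188), and 10.5% of all genes stood higher without overlap. Its partner Hspd1 was at 247, 103 and 80.6 TPM under vehicle and 119, 86.8 and 91.2 TPM under ionomycin. The ratio of Hspd1 to Hspe1 accordingly ran from 1.85 to 3.79 under vehicle and from 0.696 to 1.40 under ionomycin.

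The most abundant genes varied more among vehicle libraries than between treatments. Hspa8 was at 3148, 1729 and 806 TPM under vehicle and at 1869, 1290 and 1542 TPM under ionomycin, a log2 change of -0.08 (95% confidence interval -1.06 to 0.90). Hsp90ab1 was at 1645, 894 and 531 TPM under vehicle and at 1483, 1275 and 1276 TPM under ionomycin. Hsp90aa1 was at 833, 570 and 307 TPM and at 449, 624 and 519 TPM in the same order. Vehicle number 1 was the highest of its group for 6 of the 10 genes and number 3 the lowest for 8, where 25.2% and 25.6% of all genes were. The spread of Hspa8 in this group covered a range that includes every ionomycin library.

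Dnajb1 stayed between 41.7 and 51.3 TPM in all 6 libraries, with a log2 change of 0.06 (-0.50 to 0.63), and Dnaja1 between 211 and 286 TPM, with 0.06 (-0.39 to 0.51). Neither of these J-domain genes was called. Hspa1a and Hspa1b were at most 6.85 and 6.19 TPM in this table. The median log2 change of the 10 genes was 0.06, and that of all genes -0.00.

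Among related genes, Hspa4l, an HSP110 relative of Hsph1, was at 12.1, 36.4 and 25.3 TPM under vehicle and at 154, 155 and 144 TPM under ionomycin. Its log2 change was 2.70 (SE 0.38, limma adjusted p = 0.00972), and it was the 1 gene called of 36 partners tested. Dnaja3, the mitochondrial J-domain protein, was at 17.4 ± 2.37 and 47.4 ± 5.76 TPM (SD, n = 3), a log2 change of 1.40 (limma adjusted p = 0.0453), and was the 1 called of 11 mitochondrial genes. None of 22 endoplasmic reticulum genes, 4 heat shock factors or 14 TRiC and prefoldin genes was called. Of the 22 endoplasmic reticulum genes 2 had a positive change, and their median log2 change was -0.30. They summed to 4337 to 10223 TPM under vehicle and 5150 to 5367 TPM under ionomycin. Of 15 immediate-early genes Egr1 was called lower and 0 higher. Egr1 was at 153 ± 43.3 TPM under vehicle and 55.3 ± 8.89 TPM under ionomycin (SD, n = 3, limma adjusted p = 0.03). NK markers summed to 8759 to 14756 TPM under vehicle and 6395 to 8065 TPM under ionomycin, and neutrophil markers to 0 to 377 and 0 to 120 TPM. Of 9 NK markers 2 were called lower under ionomycin and 0 higher. Ncr1 was at 795 ± 280 TPM under vehicle and 123 ± 25.6 TPM under ionomycin (SD, n = 3). Gzma was at 5109 ± 1648 and 1076 ± 244 TPM in the same order. Dendritic cell markers (4 genes) summed to 68.3 to 169 TPM under vehicle and 232 to 401 TPM under ionomycin, without overlap. Only 1 of these 4 genes reached a mean of 1 TPM, and it was not called. In the sorted NK subsets the 1 dendritic cell gene tested was Itgax, at 493 ± 47.9 TPM in WT TP (SD, n = 3). T cell markers summed to 2.24 to 7.87 and 13.2 to 25.3 TPM, also without overlap, and none of 3 tested was called. The part of other cells in the ionomycin result was not tested.

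**Figure D3:**
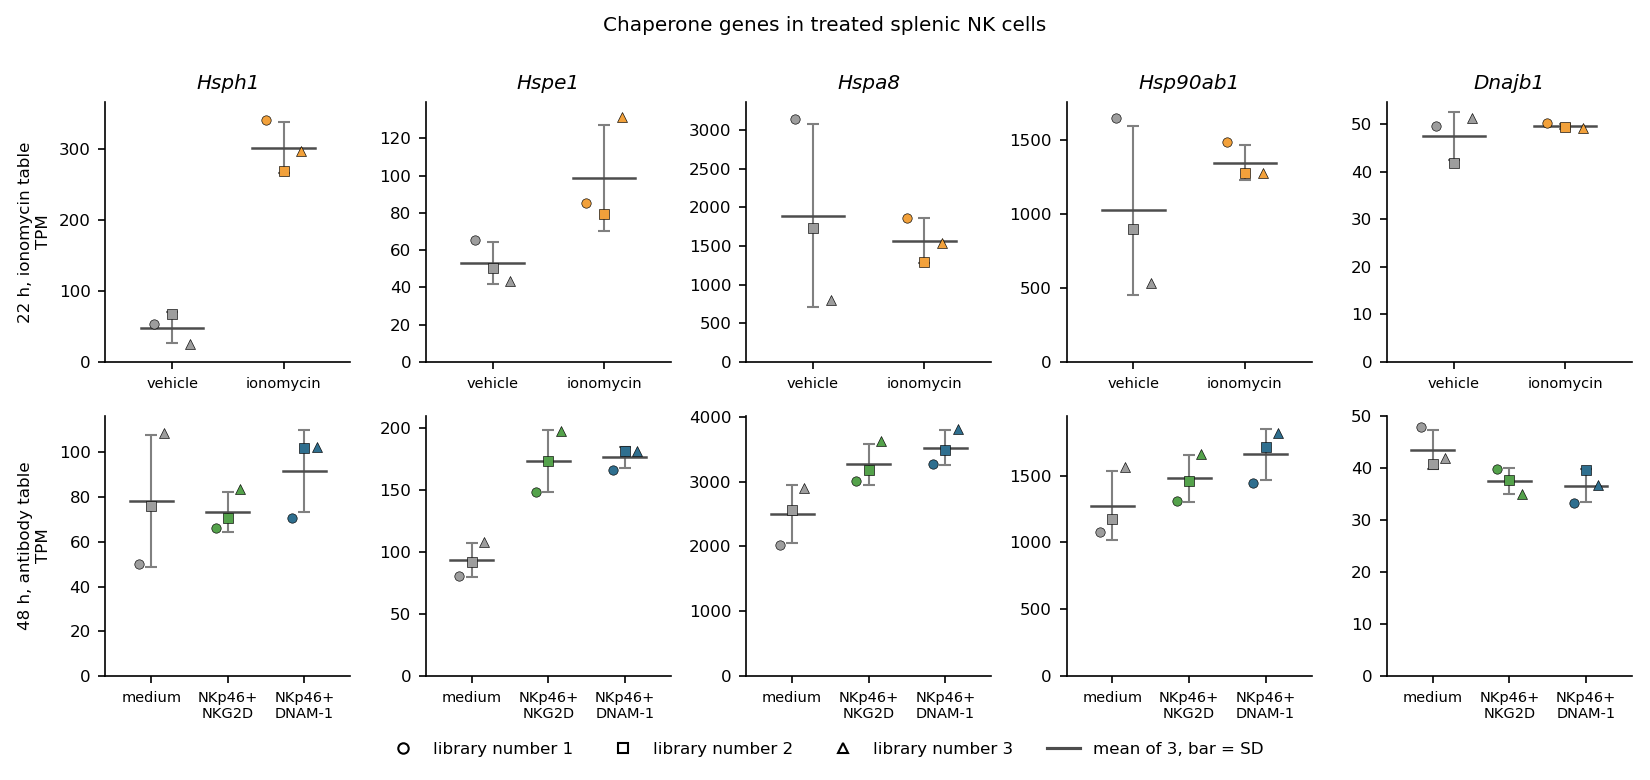
TPM of 5 chaperone genes in each library (vertical axes start at 0) for vehicle and ionomycin at 22 h (upper row) and for medium and the antibody pairs at 48 h (lower row), with mean and SD of 3 libraries. Hsph1 separates under ionomycin, at 269 to 341 against 25.2 to 67.4 TPM, and Hspe1 separates under both antibody pairs, at 148 to 197 and 166 to 181 against 80.3 to 108 TPM.

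On activating antibodies Hspe1, the HSP10 lid, rose, and Hsph1 did not separate. The sample titles and the table columns name different groups for 6 of the 9 libraries, and the columns were followed because they are attached to the values. Hspe1 was at 80.3, 92.1 and 108 TPM in medium, at 148, 173 and 197 TPM with NKp46 and NKG2D antibodies, and at 166, 181 and 181 TPM with NKp46 and DNAM-1 antibodies. Neither antibody group overlapped medium. The log2 change was 0.88 (SE 0.14, limma adjusted p = 0.0295) for the first pair and 0.92 (SE 0.14, limma adjusted p = 0.0231) for the second.

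Both comparisons share the medium libraries. Hspe1 was the 1 gene called of 8 tested in each, where 0.153% of 13689 genes were called higher with the first pair and 0.285% with the second. Hspa1a and Hspa1b were not tested, since Hspa1a was listed at 0 in 8 of 9 libraries and Hspa1b in 5, with 1.36 TPM as the highest value of either. With groups taken from the titles the log2 changes were 0.18 (limma adjusted p = 0.976) and 0.32 (limma adjusted p = 0.773), and the calls therefore hold only for the groups in the column names. The call with the first pair was also lost without medium number 1 or 2 or NKG2D number 2 or 3, with limma adjusted p between 0.0592 and 0.137. With the second it was lost without any 1 of the DNAM-1 libraries, with limma adjusted p between 0.0643 and 0.118.

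Hspd1, which works with Hspe1, was at 125, 212 and 239 TPM in medium, 233, 261 and 275 TPM with NKG2D and 226, 261 and 295 TPM with DNAM-1. The groups overlapped, and the log2 changes of 0.46 (95% confidence interval -0.01 to 0.94) and 0.48 (0.01 to 0.96) were not called. In the separate list of 11 mitochondrial chaperones and proteases, 0 were called for each pair, with median changes of -0.02 and 0.08.

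Hspa8 was at 2017, 2562 and 2909 TPM in medium, at 3013, 3173 and 3622 TPM with NKG2D and at 3273, 3492 and 3813 TPM with DNAM-1. These groups did not overlap medium, and the log2 changes of 0.40 (SE 0.13, limma adjusted p = 0.198) and 0.51 (SE 0.13, limma adjusted p = 0.101) were not called. Without medium number 3, Hspa8 and Hsp90ab1 were called higher with the DNAM-1 pair. With a replicate block Hspa8 was called higher with both pairs (limma adjusted p = 0.0307 and 0.0104). The block also called Hsp90ab1 with the DNAM-1 pair (limma adjusted p = 0.025), though no label says that a number marks 1 mouse. Dnajb1 lay on the other side, at 47.8, 40.8 and 41.8 TPM in medium, at 39.8, 37.7 and 34.9 TPM with NKG2D and at 33.3, 39.6 and 36.7 TPM with DNAM-1. Dnajb1 was not called, with log2 changes of -0.21 (limma adjusted p = 0.537) and -0.24 (limma adjusted p = 0.423). In all, 2 of 8 genes stood higher and 1 lower without overlap in each comparison, where 7.5% and 9.84% of all genes did for the first pair and 9.46% and 11.6% for the second.

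Hsph1 was at 50.2, 75.8 and 109 TPM in medium, 66.3, 70.7 and 83.5 TPM with NKG2D and 70.6, 102 and 103 TPM with DNAM-1. Its medium libraries spanned the range of both treatments, and the log2 changes were -0.03 (95% confidence interval -0.61 to 0.55) and 0.27 (-0.31 to 0.85). Dnaja1 stayed between 266 and 309 TPM throughout. Hsp90ab1 had log2 changes of 0.23 and 0.39 and Hsp90aa1 of 0.47 and 0.60, all with overlap and none called. The median over the 8 genes was 0.31 and 0.44, against -0.04 for all genes in both.

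No difference between the antibody pairs was called in the 8 genes. None was called by limma or had an unadjusted p under 0.05, and 0.0146% of all genes were called. For Hspe1 the change from the NKG2D to the DNAM-1 pair was 0.03 (95% confidence interval -0.28 to 0.35), and for Hspa8 0.11 (-0.17 to 0.39). The libraries numbered 1 were the lowest of their group for 7 of 8 genes in medium and with NKG2D, and for 8 of 8 with DNAM-1, where 33.2%, 35% and 29.6% of all genes were lowest there.

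Handling-sensitive immediate-early genes moved with the antibody treatments: they summed to 3902 to 5760 TPM in medium, 1335 to 1552 TPM with NKG2D and 1397 to 1639 TPM with DNAM-1, and 7 of 15 were called lower with each pair. The largest falls with NKG2D were those of Egr1, Fos and Nr4a1, by log2 changes of -2.64, -2.64 and -2.63. Summed NK markers overlapped between all 3 antibody and medium groups. Of 9 NK markers only Klrd1 was called, lower with DNAM-1 (limma adjusted p = 0.0481). Klrd1 was at 1712 ± 83.0 TPM in medium and 1341 ± 36.9 TPM with DNAM-1 (SD, n = 3). B and plasma cell markers summed to 184 to 223 TPM in medium, 124 to 170 TPM with NKG2D and 152 to 180 TPM with DNAM-1, and none was called. The part of other cells or of the immediate-early genes in the chaperone levels was not tested. Of 36 partners, 4 heat shock factors and 14 TRiC and prefoldin genes none was called with either pair, and of 22 endoplasmic reticulum genes Atf4 fell with DNAM-1, by 0.62 on the log2 scale (limma adjusted p = 0.0337).

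The genes most like the mean of the 8 tested members over the 9 antibody libraries were Pms1 (Pearson r = 0.993), Manf (0.967), D030056L22Rik (0.961), Suv39h1 (0.958) and Mrpl51 (0.951), out of 9624 genes. None of them was among the 5 named for the subset table. Manf, a protein of the endoplasmic reticulum, averaged 136 TPM in medium, 171 TPM with NKG2D and 194 TPM with DNAM-1. Between pairs of the 8 genes the median r was 0.518, from -0.829 for Dnajb1 with Hspa8 to 0.941 for Hspa8 with Hspd1, over 9 libraries that share treatment and number.

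The tumour libraries have no control group in their table, so they are described alone. Here the inducible genes were abundant. Hspa1b was at 374, 457 and 3785 TPM and ranked 406, 319 and 20 among all genes of its library. Hspa1a was at 149, 246 and 1933 TPM, and the 2 summed to 523, 703 and 5717 TPM. The library numbered 3 stood far above the others for this pair, and those 2 lay close together.

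The other genes spread less. Hsph1 was at 322, 406 and 953 TPM and Dnajb1 at 135, 156 and 498 TPM, with number 3 again the highest. Hspa8 was at 4816, 4623 and 6384 TPM, Hsp90aa1 at 1617, 1334 and 2109 TPM, and Hspe1 at 142, 171 and 290 TPM. Hsp90ab1, at 2358, 2148 and 2299 TPM, and Dnaja1, at 786, 680 and 739 TPM, were highest in number 1. Number 3 was thus the highest for 8 of 10 genes, where 34.9% of the 14023 genes at a mean of 1 TPM or more were highest. The sum of the 10 genes was 11059, 10525 and 19429 TPM, and Hspa8 made up 43.6%, 43.9% and 32.9% of it.

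**Figure D4:**
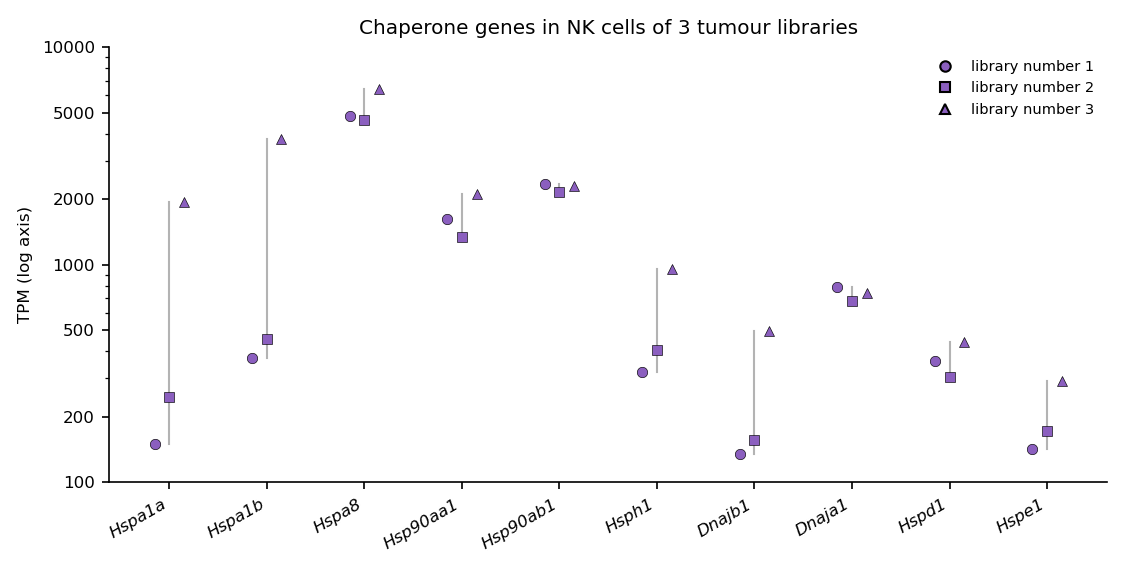
TPM of the 10 chaperone genes (vertical log axis) in the 3 tumour NK cell libraries, with a line from the lowest to the highest. Hspa1b spans 374 to 3785 TPM while Hsp90ab1 spans 2148 to 2358 TPM.

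Bag3, an HSP70 exchange factor, was also highest in number 3, at 25.1, 30.1 and 90.5 TPM, while Hsf1 was at 83.1, 61.4 and 44.7 TPM and Stip1 at 124, 154 and 123 TPM. The handling-sensitive genes summed to 7706 to 8184 TPM over the 3 libraries. Fibroblast markers (4 genes) summed to 37.9, 1023 and 833 TPM and erythroid markers to at most 335 TPM, and NK markers to 10320 to 11070 TPM. The part of other cells or of handling in the chaperone levels was not tested.

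Levels were not tested across tables, which were normalised separately. Each table taken alone, Hspa1b peaked at 40.6 TPM among sorted subsets and 6.19 TPM among ionomycin and vehicle libraries. Its peak was 0.39 TPM among antibody and medium libraries and 3785 TPM in tumours. Hsph1 peaked at 189, 341, 109 and 953 TPM in the same order. Both tumour peaks came from library number 3. The tables differ in cells and handling, and the peaks are not compared between them.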

How the data were processed

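Gene expression was measured by RNA-seq in 36 mouse NK cell libraries, 12 groups of 3. The deposited tables hold TPM values made by the authors before deposit. STAR, RSEM and GRCm39 are named without versions per the submitters' processing notes, and RNA was extracted with miRNeasy Micro and libraries made with KAPA mRNA HyperPrep, per the labels' protocols. TPM keep no depth, so counting error is unknown.

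Within a table, genes averaging 1 TPM or more were tested on log2(TPM + 1), in which the changes of low genes are understated, with limma 3.58.1 (R 4.3.3, variance trend, all groups of a table in 1 fit). P-values were adjusted by Benjamini-Hochberg over all tested genes and called under 0.05. They set a difference between groups against the spread of these libraries within groups, in a fit that did not pair libraries by number. Tests were made only within a table, in 13 comparisons and 1 interaction, and scripts were tested on simulated data. An exact permutation test of 3 against 3 cannot go below 0.1 and was not used. Like genes were ranked by Pearson correlation at a mean of 5 TPM or more. All 10 members are named, and other genes where they belong to a list and were called, or are the 5 most like the members; Hsf1, Bag3 and other uncalled list genes were named after their values were seen. The members and lists were chosen with earlier results of these data known. Alternatives were another pseudocount (0.1), no filter, no trend, other scalings, only the compared groups, a replicate block, titles in place of column names, and each library left out. Python 3.11.15 and matplotlib 3.10.9 were used for figures.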

Additional observations from a re-analysis of the deposited data

How the results depend on the processing

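Counts of the 10 genes called depended on the settings. For KO against WT in TP (2 called), 1 was called with a pseudocount of 0.1, without the filter, without the variance trend and with median-of-ratios rescaling, 0 with only the compared groups and 0 without KO number 3 in all subsets. In SP (5 called), 2 were called without the filter, 3 without the trend, 3 with rescaling, 1 with only the compared groups, 3 without KO number 3 and 3 without WT number 3. In TN (4 called), 1 was called without the filter, 1 without the trend, 1 with only the compared groups and 2 without KO number 3. For each antibody pair against medium (1 called), 0 were called without the filter, without the trend, with only the compared groups and with groups from the titles. With single libraries left out, the counts ran from 0 to 5 in TP, 0 to 4 in SP, 0 to 4 in TN, 0 to 1 for ionomycin, 0 to 1 for the NKG2D pair and 0 to 3 for the DNAM-1 pair. With a replicate block 4 were called in TP, 2 with the NKG2D pair (Hspe1 and Hspa8) and 3 with the DNAM-1 pair (Hspe1, Hspa8 and Hsp90ab1). Over all genes the block called 239 with the NKG2D pair and 528 with the DNAM-1 pair, against 59 and 107 without it, and the titles gave 0 and 1. Same-numbered libraries of the subset and antibody tables carry a common label such as WT1 or KO1, and no label states a shared mouse. Deviations of same-numbered libraries correlated by 0.01 on average among sorted subsets and 0.062 among ionomycin and vehicle libraries. Among antibody and medium libraries the average was 0.064, and 1 of 9 pairs passed 0.1. In the same order, 7 of 18, 5 of 6 and 7 of 9 libraries correlated best with their own number. Changes of genes that were called kept their sign under every alternative run. Of the 120 changes of these genes that were not called, 71 had the other sign under at least 1 alternative, Hspa8 with ionomycin among them (-0.59 to 0.39), and 6 were called under at least 1. The causes were not tested.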
